A study of Mus musculus with 14 samples.

Results

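This account describes 4 of the 14 RNA sequencing libraries of a study of the transcription factor NRF2 in mouse liver cancer: 2 tumours made with Cas9 and a guide RNA against the stretch of Nfe2l2 (the gene of NRF2) that encodes the ETGE motif, named sgNrf2 tumours A and B, and 2 control tumours, A and B. They were chosen by their labels and are all the libraries of the deposited table that holds sgNrf2 tumours. Every tumour is labelled as a MYC-driven murine hepatocellular carcinoma of hepatocytes. Controls A and B carry the genotype label "control" and are described as repeats of control tumours 2 and 4 of the same study, which received a guide against GFP, a sequence that mice lack. No source used here gives how MYC was introduced, the strain, sex and age of the mice, or whether a tumour is 1 clone. The comparison asks which genes differ when NRF2 is edited at the motif by which it is held in check. In a second table the study compared guides against Keap1 and Cul3 with the GFP guide, and those values are used at the end only beside the sgNrf2 values.

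NRF2 is a CNC-type basic leucine zipper factor that pairs with small MAF proteins and binds the antioxidant response element of genes for glutathione, thioredoxin, NADPH and drug conjugation. KEAP1 binds NRF2 through its ETGE and DLG motifs and hands it to a ubiquitin ligase built on CUL3, so that NRF2 is degraded until oxidants or electrophiles modify KEAP1. In human liver cancer, mutations of this system are found in the NRF2 motifs that KEAP1 binds as well as in KEAP1, and hepatocytes use the pathway to clear reactive compounds.

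The edited motif is shown first, because the groups differ by the guide against it. It lies in exon 2 of the transcript Nfe2l2-201, in the coding sequence, at chr2:75679229-75679240 on the minus strand (GRCm38), and encodes residues 79 to 82 of 597. The stretch of 60 coding bases around it, chr2:75679205-75679264, is printed 5′ to 3′ with the motif in capitals, from the GENCODE M21 transcripts. No source used here gives the guide sequence or the edited alleles, and gene counts do not show them.
Nfe2l2 ETGE stretch: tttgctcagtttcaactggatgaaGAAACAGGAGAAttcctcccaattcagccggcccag

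Promoters of 3 genes that rose are shown next, because each holds the letters TGACNNNGC, the core of the antioxidant response element, on 1 of its strands. They come from RefSeq (GRCm38.p6) and are limited to the stretch outside annotated exons. For Ugdh this is chr5:65435950-65436092 (minus strand, 143 bases), with the letters in capitals 132 bases before the start; for Txnrd1 chr10:82859009-82859178 (plus strand, 170 bases), on the reverse strand at 92 bases; and for Abcc4 chr14:118706220-118706469 (minus strand, 250 bases), on the reverse strand at 25 bases.
Ugdh: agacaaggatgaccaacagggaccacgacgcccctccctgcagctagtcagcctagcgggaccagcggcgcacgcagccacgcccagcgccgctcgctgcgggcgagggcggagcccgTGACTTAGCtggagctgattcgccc
Txnrd1: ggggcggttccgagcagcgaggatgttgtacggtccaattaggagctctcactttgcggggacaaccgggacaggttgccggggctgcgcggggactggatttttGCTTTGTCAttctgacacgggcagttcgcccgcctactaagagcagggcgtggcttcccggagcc
Abcc4: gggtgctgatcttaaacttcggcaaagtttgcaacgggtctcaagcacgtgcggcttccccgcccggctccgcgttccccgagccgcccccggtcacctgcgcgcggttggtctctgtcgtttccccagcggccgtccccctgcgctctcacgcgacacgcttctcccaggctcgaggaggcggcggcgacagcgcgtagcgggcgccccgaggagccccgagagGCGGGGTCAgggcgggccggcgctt
None of the 3 stretches holds TGACTCA or its reverse complement, the letters of the AP-1 element. Searched on both strands of the window given by RefSeq around each start, the letters TGACNNNGC occurred in 10.2% of 32851 mouse promoters. By gene, they occurred in 13.9% of the 10499 matched genes that were tested, in 13.4% (27 of 202) of those that rose, in 10.98% (28 of 255) of those that fell, and in 20.4% (10 of 49) of the listed NRF2 targets with a promoter entry. Those 10 targets were Abcc2, Abcc4, Blvra, G6pdx, Gclm, Gsta3, Mgst1, Prdx1, Txnrd1 and Ugdh.

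Values are the authors' read counts per gene scaled by DESeq, called normalised reads here, and are given in the order control A and control B against sgNrf2 tumours A and B. A log2 fold change (sgNrf2 minus control, with its standard error after ±) is that of log2(normalised reads + 1), which understates changes of low genes. A gene is called, and said to have risen or fallen, where limma gave a Benjamini-Hochberg adjusted p under 0.05 over all 13989 genes with a mean of at least 10. 266 genes rose (1.9% of those tested) and 351 fell (2.51%), and the median over all genes was 0.04. With 2 libraries a side the groups did not overlap for 64% of genes, and an exact two-sided permutation test of 1 gene could not go below p = 0.333. That 64% is the share to set beside every statement below that the groups lay apart. P-values here reflect no more than the spread among these 4 samples, which the labels do not tie to separate mice. Scaling each library to the same total moved the median of all genes up by 0.31 and the share of calls that were higher from 43.1% to 70.8% (889 higher and 367 lower). edgeR called 181 higher (1.29%) and 284 lower (2.03%), and DESeq2 1181 (8.44%) and 1458 (10.4%). Without control A there were 1850 higher and 1718 lower calls, without control B 472 and 405, without sgNrf2 tumour A 30 and 39, and without sgNrf2 tumour B 25 and 33. Counts of a gene list are followed by those with control A, control B, sgNrf2 tumour A and sgNrf2 tumour B left out in turn.

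The libraries held 17819333 to 20848578 reads on genes, so that 3 reads, the limit that a count of 0 allows, stand for 0.144 to 0.168 CPM. Across 15777 genes, control A was most alike sgGFP tumour 2 (Pearson r = 0.989) and control B sgGFP tumour 4 (r = 0.980), the tumours they repeat by their labels, while sgNrf2 tumours A and B had r = 0.975 with each other. These r are over genes, which are not independent replicates. The groups also differed in measures of the libraries. The entry of the counting program HTSeq for alignments that were not unique was 56.8 and 58.0% of the sum of all entries against 45.0 and 46.4%. The 10 most abundant genes took 15.6 and 18.9% of gene reads against 7.94 and 9.09%. All 12 hepatocyte markers (Alb, Ttr, Apoa1, Hnf4a and others) had reads in all 4 libraries. Their median log2 fold change was -0.70, and limma called 0 of them, with 4 at an unadjusted p under 0.05, 0 called by edgeR and 4 lower by DESeq2. In bulk tissue, fewer cells of a type and less RNA per cell cannot be told apart.

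The difference between the groups also moved with gene length. The median log2 fold change was -1.38 for genes with up to 500 exonic bases, -0.88 up to 1000, -0.39 up to 2000, -0.04 up to 4000, 0.18 up to 8000 and 0.29 above that. Up to 500 bases 8.72% of 195 genes fell, and above 8000 bases 1.19% of 2263 did. In each library the median deviation of genes of like length from their own means was then subtracted. After this correction, 164 genes rose (1.17%) and 217 fell (1.55%), of which 155 and 201 were among the calls above. The part of transcript length in any single result was not tested, and results that this correction ended are named beside each group of genes.

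**Figure D1:**
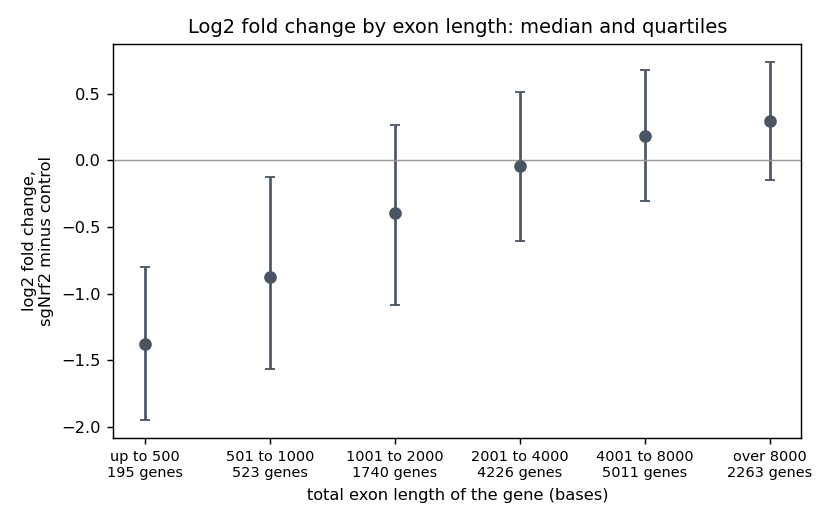
The points are the median log2 fold change (sgNrf2 minus control) of genes in 6 classes of total exon length in bases, and the bars run from the lower to the upper quartile of the genes. The median goes from -1.38 in the shortest to 0.29 in the longest class, and the quartiles of neighbouring classes overlap.

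Of the genes of the pathway's own switch, Maff alone was called. Nfe2l2 itself had 1844 and 1397 against 1486 and 1615 (-0.05 ± 0.22) and limma adjusted p = 0.89. Keap1, the substrate receptor, had 1308 and 1223 against 1483 and 1538 (0.26 ± 0.18), and Cul3, the scaffold of the ligase, had 2663 and 2741 against 2715 and 2601 (-0.02 ± 0.17), with adjusted p of 0.37 and 0.94. The values of the groups overlapped for Nfe2l2 and Cul3, and both values turned to higher with a library left out: Nfe2l2 was 0.15 without control A and 0.01 without sgNrf2 tumour A, and Cul3 was 0.0068 without sgNrf2 tumour B. Of the 20 listed genes of the ligase, the CNC factors and the small MAF proteins, 19 passed the filter on low values and 1 was called: Maff, a small MAF partner of NRF2, fell from 1005 and 942 to 197 and 136 (-2.56 ± 0.28, adjusted p = 0.034). Maff passed with all 4 libraries, but it did not without sgNrf2 tumour A (adjusted p = 0.064), and it did not without sgNrf2 tumour B (adjusted p = 0.098). Adjusted p over the settings was 2.1e-11 to 0.098. Mafg, the other small MAF protein described here, had 1801 and 2440.1 against 1278 and 1208 (-0.75 ± 0.22) and Bach1, a repressor at the same DNA element, had 675 and 599.9 against 905 and 878 (0.49 ± 0.20), and neither passed. Myc, the driver of these tumours, had 9034 and 6046 against 6756 and 7475 (-0.06 ± 0.26), its groups overlapped, and adjusted p was 0.90. The Myc value was 0.23 without control A and 0.02 without sgNrf2 tumour A.

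Fn3k, the kinase that removes sugars bound to lysines and the subject of the study's title, was low in all libraries, with 27.0 and 48.1 against 37.3 and 48.1 (0.23 ± 0.51). Its groups overlapped, adjusted p was 0.79, and the value turned to -0.18 without control A. The related kinase Fn3krp had 152 and 127 against 297 and 378 (1.27 ± 0.30), both sgNrf2 tumours above both controls, and adjusted p = 0.075. Limma called 0 of the 11 genes listed for FN3K and glycation repair, with 6 at an unadjusted p under 0.05. edgeR also called 0, and DESeq2 called 3 higher and 2 lower.

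The listed targets of NRF2 were mostly higher in the sgNrf2 tumours. All 58 passed the filter, 24 rose (30, 27, 10 and 8 with each library left out in turn), and the other 34 did not pass. Their median log2 fold change was 2.11 beside 0.04 over all genes. In 45 of them both sgNrf2 tumours lay above both controls, and in 2 both lay below. edgeR called 21 higher, DESeq2 38 higher and 2 lower, and 21 rose after the exon length correction. Akr1b7, an aldo-keto reductase on this list, had 989.8 and 15042 against 66.4 and 11.4 (-7.06 ± 1.49), with both sgNrf2 tumours below both controls, controls that differed widely, and adjusted p = 0.065.

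Slc7a11, Gclc, Gss and Gsr were the genes of cystine import and glutathione metabolism that rose. Slc7a11, the cystine-glutamate exchanger (xCT; chr3:49892526-50443614, minus strand), had 14.02 and 25.3 against 11863 and 6709 (8.81 ± 0.43): nearly silent in both controls and among the higher genes in both sgNrf2 tumours. Gclc, the catalytic subunit of glutamate-cysteine ligase and the rate-limiting step of glutathione synthesis, had 2540.3 and 3469 against 41752 and 21552 (3.34 ± 0.38). Its modifier subunit Gclm had 3799 and 4556 against 13054 and 8558 (1.34 ± 0.28) with adjusted p = 0.061, which does not pass. Gss, glutathione synthetase, had 2853 and 2786 against 7025 and 5674 (1.16 ± 0.20), and Gsr, glutathione reductase, had 3486 and 4769 against 16880.1 and 12469 (1.83 ± 0.27). In both sgNrf2 tumours these genes were above both controls, and tumour A was above tumour B. Of the 21 listed genes of cystine import and glutathione metabolism, 4 rose (5, 2, 2 and 2 with each library left out in turn), with a median of 0.64.

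The highest log2 fold change among the named genes was that of Gpx2, the glutathione peroxidase of gut epithelium (chr12:76792333-76795554, minus strand). Controls A and B held 1 read each (1.08 and 1.27 normalised reads) and the sgNrf2 tumours 2913 and 2238, which is 2223-fold higher (counting interval 615 to 18358). Cat, catalase, had 9401 and 10742 against 42415 and 32231 (1.88 ± 0.26), whereas Gpx3, the secreted peroxidase of plasma, fell from 1562 and 945 to 359 and 311 (-1.86 ± 0.31). In the thioredoxin system, Srxn1, sulfiredoxin, which repairs overoxidised peroxiredoxins (chr2:152105516-152111376, plus strand), had 195 and 165 against 20113 and 14000.1 (6.54 ± 0.25). Txnrd1, the cytosolic thioredoxin reductase whose promoter is printed above, had 2651 and 2025 against 20822 and 16599 (3.004 ± 0.24). The peroxiredoxins Prdx2 and Prdx5 fell from 8034 and 7185 to 3469 and 3281 (-1.17 ± 0.18) and from 3313 and 3406 to 1716 and 1552 (-1.04 ± 0.17). Of 16 listed thioredoxin, sulfiredoxin and peroxiredoxin genes, 2 rose (2, 2, 2 and 1 with each library left out in turn) and 2 fell (4, 2, 0 and 0 with each library left out in turn). Of 10 glutathione peroxidase, catalase and superoxide dismutase genes, 2 rose and 1 fell.

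Supply of NADPH, which both systems consume, was represented by Pgd, phosphogluconate dehydrogenase of the pentose phosphate pathway, with 2446 and 3029 against 25904 and 14312 (2.82 ± 0.34), and Me1, malic enzyme, with 854 and 1066 against 3640.0 and 4281 (2.05 ± 0.21). These were the 2 of 17 listed NADPH genes that rose (3, 2, 0 and 1 with each library left out in turn). For iron and heme, Ftl1, the ferritin light chain, had 7579 and 6333 against 23009 and 23517 (1.75 ± 0.21), and Slc48a1, a heme transporter of endosomes, had 431 and 195 against 2724 and 1772 (2.92 ± 0.45): 2 of 29 listed genes rose (7, 1, 0 and 0 with each library left out in turn). Hmox1, heme oxygenase 1 and a commonly used NRF2 target, had 3637 and 329 against 1135 and 1586 (0.29 ± 1.12), with control A above and control B below both sgNrf2 tumours. Its log2 fold change was 2.02 without control A and -1.44 without control B. The summed level of macrophage markers, described with the blood cells further on, was 26042 and 4159 against 20239 and 21207. Of these markers, Csf1r and Adgre1 were lower in control A than in both sgNrf2 tumours. Hmox1 is known to be expressed by macrophages, and their part in the Hmox1 values was not tested. The 15 calls among the redox genes had limma adjusted p of 0.012 to 0.047. The 15 calls depended on the libraries: those passing were only Gpx2, Srxn1, Slc7a11, Gclc and Txnrd1 without sgNrf2 tumour A (the rest at adjusted p 0.073 to 0.36), only Gpx2, Srxn1, Slc7a11, Gclc and Pgd without sgNrf2 tumour B (the rest at adjusted p 0.051 to 0.31), and all but Gclc, Gss, Pgd and Slc48a1 without control B (adjusted p 0.050 to 0.055). Alternatives took away the call of Prdx2 after quantile normalisation (adjusted p = 0.058), of Gpx3, Prdx2 and Prdx5 with equal totals (adjusted p 0.062 to 0.063), of Gss, Gpx3, Prdx2, Prdx5 and Slc48a1 in edgeR (adjusted p 0.052 to 0.056), and of Gss, Gpx3, Prdx2 and Prdx5 after the exon length correction (adjusted p 0.053 to 0.081). The settings together gave adjusted p of 1.2e-88 to 0.36.

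**Figure D2:**
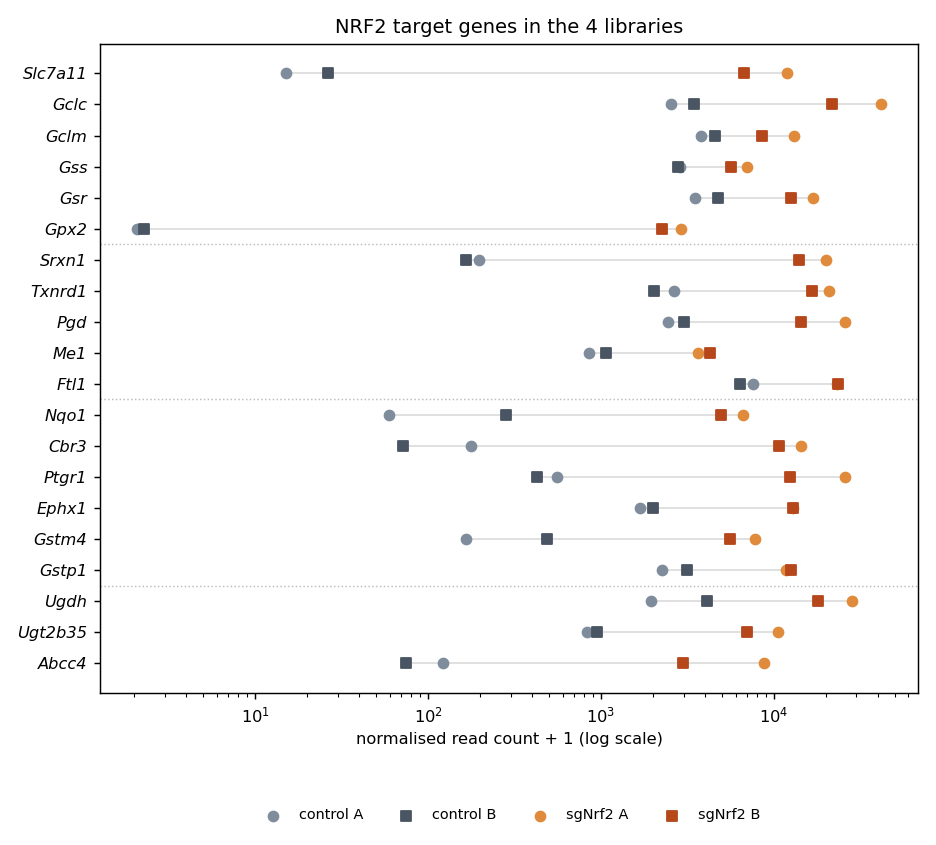
Each row is an NRF2 target gene, and each point its normalised read count plus 1 in 1 library on a log scale, grey for controls A and B and orange to red for sgNrf2 tumours A and B, with dotted lines between glutathione, thioredoxin and iron, detoxification, and glucuronidation and export genes. In all rows shown both sgNrf2 tumours lie to the right of both controls, from Gss (2853 and 2786 against 7025 and 5674) to Gpx2 (1.08 and 1.27 against 2913 and 2238). The rows are a choice among the genes named in the text, and Hmox1 and Akr1b7 are not drawn. Of all 58 listed targets, both sgNrf2 tumours lay above both controls for 45 and below them for 2.

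Of the 24 enzymes for quinones, carbonyls and epoxides that passed the filter, 10 rose (14, 10, 6 and 4 with each library left out in turn), with a median of 1.48, and both sgNrf2 tumours were above both controls for 15 and below them for 3. Nqo1, the quinone reductase most used as a readout of NRF2, had 58.2 and 282 against 6663 and 4929.8 (5.47 ± 0.75). Cbr3, a carbonyl reductase, had 177 and 70.9 against 14257 and 10668 (6.77 ± 0.47), and Cbr1 had 3018 and 5419 against 17126 and 15448 (2.01 ± 0.33). Ephx1, microsomal epoxide hydrolase, had 1687 and 2007 against 12846 and 12818 (2.80 ± 0.19) and nearly equal values in the sgNrf2 tumours. Ptgr1, which reduces the double bond of reactive alkenals and of prostaglandins, had 554 and 424 against 25746 and 12464 (5.20 ± 0.39). Aldo-keto reductases of the 1C family act on steroids and other ketones. Akr1c6 had 31.3 and 69.6 against 4289 and 5135 (6.62 ± 0.42). Akr1c14, a hydroxysteroid dehydrogenase, had 355 and 616 against 4678 and 5288 (3.41 ± 0.31). Akr1c19 had 367 and 277 against 6571 and 3895 (3.98 ± 0.32), and Akr1c20 had 5.39 and 21.5 against 538 and 639.8 (5.61 ± 0.68). All 4 were low in both controls beside the sgNrf2 tumours, and they are close copies of one another, so reads could be split between them. Aldh1a1, a retinaldehyde dehydrogenase, had 3091 and 1855 against 17898 and 17240.3 (2.87 ± 0.29), and Xdh, xanthine dehydrogenase, had 362 and 325 against 1197 and 936 (1.62 ± 0.23).

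Glutathione S-transferases changed in both directions. Gstm2 of the mu class had 94.9 and 208 against 4132 and 2031 (4.36 ± 0.52). Gstm4 of the same class had 164 and 483 against 7773 and 5570.5 (4.54 ± 0.55). Gstp1 of the pi class rose from 2264 and 3161 to 11675 and 12613 (2.18 ± 0.23), whereas the theta class genes were lower in both sgNrf2 tumours. Gstt1 fell from 3493 and 4376 to 1317 and 1273 (-1.59 ± 0.20). Gstt2 fell from 2121 and 1624 to 478 and 462 (-1.98 ± 0.22). Of 24 listed transferases that passed the filter, 3 rose (7, 10, 1 and 0 with each library left out in turn) and 2 fell (4, 2, 0 and 0 with each library left out in turn), with a median of 1.04. The mu class genes lie in a cluster of near copies and are uncertain one by one. Those 16 calls among these enzymes had limma adjusted p of 0.020 to 0.047. With 3 libraries in place of 4, the genes of these 16 calls that passed were only Cbr3, Ephx1, Ptgr1, Akr1c6, Akr1c14, Akr1c19 and Gstm4 without sgNrf2 tumour A (the rest at adjusted p 0.060 to 0.28), only Cbr3, Ptgr1, Akr1c6 and Akr1c19 without sgNrf2 tumour B (the rest at adjusted p 0.050 to 0.17), and all but Xdh without control B (adjusted p = 0.052). Calls did not hold for Cbr1 in edgeR (adjusted p = 0.054), and for Cbr1, Gstt1 and Xdh after the exon length correction (adjusted p 0.053 to 0.057). Across settings the adjusted p was 3.6e-50 to 0.28.

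In glucuronidation, which makes drugs, bilirubin and steroids soluble, genes of the sugar donor and some transferases rose. Ugp2, which makes UDP-glucose, had 2726 and 4225 against 15722 and 11459 (1.98 ± 0.30), and Ugdh, which oxidises it to UDP-glucuronate, had 1954 and 4126 against 28118 and 17995 (2.99 ± 0.44). Entpd5, a nucleoside diphosphatase of the endoplasmic reticulum, had 1699 and 3254 against 13596 and 11039.6 (2.38 ± 0.36). Among the transferases, Ugt1a6b had 41.0 and 36.7 against 339 and 326 (3.07 ± 0.32). Ugt1a7c had 17.3 and 7.59 against 1641 and 375 (5.97 ± 0.83), and Ugt2b1 had 41.0 and 59.5 against 2347 and 680.0 (4.65 ± 0.64). For both of these, tumour A was well above tumour B, which was still above both controls. Ugt2b34 had 2679 and 3926 against 15716 and 11049 (2.02 ± 0.30) and Ugt2b35 had 828 and 952 against 10567 and 6999.6 (3.27 ± 0.26). Of 20 listed glucuronosyl- and sulfotransferase genes that passed the filter, 7 rose (8, 6, 1 and 3 with each library left out in turn), with a median of 1.55. The Ugt1a genes share their last exons, so their reads cannot be assigned to 1 of them with certainty.

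Esterases and cytochromes P450 went in both directions. Ces1b had 134 and 219 against 1557 and 1439 (3.12 ± 0.31). Ces1f had 30.2 and 2.53 against 891 and 970.2 (6.47 ± 1.05), and Ces1g had 273 and 835 against 4465 and 4063 (3.15 ± 0.54). Ces2a, of another subfamily that also cleaves drug esters, fell from 1699 and 4756 to 139 and 274 (-3.86 ± 0.59). In all, 3 of 12 carboxylesterases rose (7, 6, 0 and 0 with each library left out in turn) and 1 fell. Ces1 genes are near copies as well. Of 46 drug-metabolising P450 genes that passed the filter, 1 rose, the epoxygenase Cyp2j5 with 27.0 and 36.7 against 499 and 1023 (4.46 ± 0.46), and 3 fell (16, 3, 0 and 0 with each library left out in turn). The CYP3A family, near copies of each other, metabolises many drugs. Cyp3a25 fell from 2369 and 6638 to 386 and 503 (-3.17 ± 0.52), and Cyp3a59 fell from 183 and 227 to 21.9 and 35.8 (-2.82 ± 0.43). Cyp4a14, a fatty acid omega-hydroxylase induced by PPAR-alpha, had 339.6 and 3256 against 5.67 and 13.1 (-6.76 ± 1.14), with controls far apart but both above the sgNrf2 tumours. The exporter Abcc4 (MRP4), whose promoter is printed above, had 121 and 73.4 against 8730.1 and 2997 (5.75 ± 0.57). Abcc3 (MRP3) had 282 and 93.7 against 3509 and 1416 (3.77 ± 0.68) and adjusted p = 0.052. Of 20 export pumps and anion carriers, 1 rose (5, 1, 1 and 1 with each library left out in turn) and 2 fell (5, 1, 0 and 0 with each library left out in turn), with a median of -0.99. Limma adjusted p of the 17 calls among conjugation, esterase, P450 and pump genes was 0.024 to 0.050. Of these 17 calls, the following passed with a library left out: only Ugt2b35, Abcc4 and Cyp2j5 without sgNrf2 tumour A (the rest at adjusted p 0.088 to 0.22), only Ugt1a7c, Ugt2b1, Ugt2b35 and Abcc4 without sgNrf2 tumour B (the rest at adjusted p 0.066 to 0.16), and all but Ugt1a7c, Ugt2b1, Ces2a, Abcc4 and Cyp3a59 without control B (adjusted p 0.051 to 0.063). Other settings ended the call of Ces1g, Cyp3a25 and Cyp4a14 in edgeR (adjusted p 0.050 to 0.057), and of Entpd5, Ces1f, Ces1g, Ces2a, Cyp3a25, Cyp3a59 and Cyp4a14 after the exon length correction (adjusted p 0.050 to 0.062). Over all settings tried, adjusted p ran from 2e-23 to 0.22.

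Some genes of bile acid synthesis rose, and a repressor, a binding protein, a hormone and a pair of transporters of the bile acid system fell. Cyp7a1, the rate-limiting enzyme of bile acid synthesis, had 22.6 and 22.8 against 486 and 415 (4.25 ± 0.34). Cyp7b1, the hydroxylase of the alternative pathway, had 3.23 and 3.797 against 792 and 848 (7.51 ± 0.38), and Cyp8b1, the sterol 12-alpha-hydroxylase that makes cholic acid, had 30.2 and 18.98 against 1745 and 2713 (6.45 ± 0.39). All 3 were low in both controls, and the sgNrf2 tumours did not overlap with them. Baat, which joins bile acids to taurine and glycine, had 181 and 225 against 749 and 691 (1.83 ± 0.25). Akr1c6 and Akr1c14, given above, are on the same list, of which 6 of 19 rose (8, 7, 4 and 3 with each library left out in turn) and 1 fell (5, 1, 1 and 1 with each library left out in turn), with a median of 0.07.

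Nr0b2 (SHP), a nuclear receptor without a DNA-binding domain that represses Cyp7a1, fell from 693 and 1369 to 9.72 and 19.2 (-6.05 ± 0.53). Fabp6, the bile acid binding protein of the ileum, fell from 10590.3 and 6017 to 41.3 and 21.9 (-8.00 ± 0.44). Fgf15, the gut hormone that lowers bile acid synthesis, had 195 and 121 against 0 and 0.874; the sgNrf2 tumours together held 1 read, and the gene was 384-fold lower (counting interval 68.3 to 15204), and 185 without sgNrf2 tumour A and at least 66.4 without sgNrf2 tumour B. Slc51b, a subunit of the basolateral bile acid exporter, had 1708 and 2989 against 186 and 270.1 (-3.33 ± 0.36), and Abcb11, the bile salt export pump, had 5221 and 9399.7 against 937 and 1671 (-2.48 ± 0.41). In these 5 genes both controls lay above both sgNrf2 tumours, beside 64% of all genes whose groups did not overlap in either direction. The 9 calls had limma adjusted p of 0.017 to 0.047. When a library was left out, the 9 calls passed as follows: all but Cyp7a1, Baat, Slc51b and Abcb11 without sgNrf2 tumour A (adjusted p 0.054 to 0.26), all but Cyp7a1, Baat, Slc51b and Abcb11 without sgNrf2 tumour B (adjusted p 0.055 to 0.20), and all but Abcb11 without control B (adjusted p = 0.068). The call was lost for Abcb11 in edgeR (adjusted p = 0.054), for Abcb11 after the exon length correction (adjusted p = 0.052), and for Fgf15 under a mean filter of 50 (adjusted p = 0.055). Adjusted p over the settings was 2.9e-65 to 0.26.

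**Figure D3:**
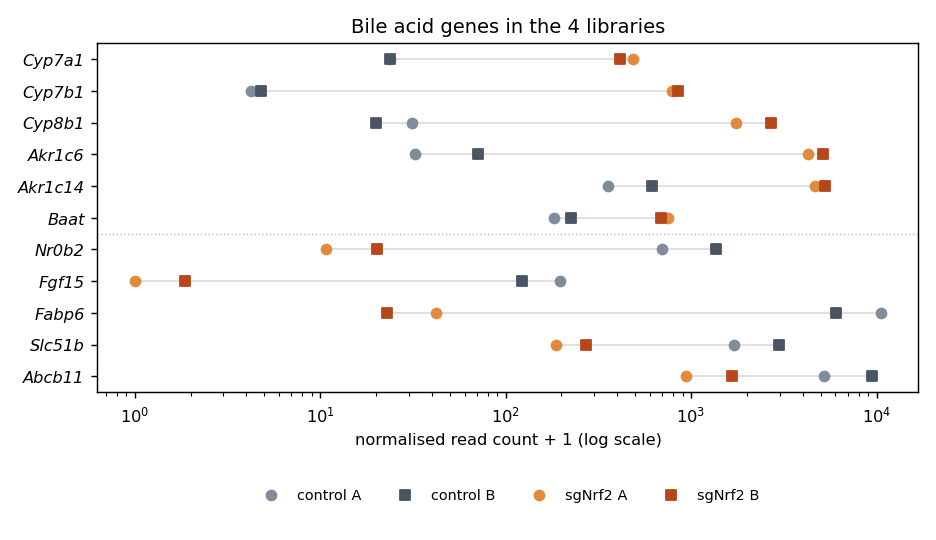
Each row is a bile acid gene, and each point its normalised read count plus 1 in 1 library on a log scale, grey for controls and orange to red for sgNrf2 tumours, with a dotted line between synthesis genes and the others. The synthesis genes drawn are the 6 that rose, and they lie to the right in both sgNrf2 tumours. Nr0b2, Fgf15, Fabp6, Slc51b and Abcb11 lie to the left. Of all 19 genes tested on the synthesis list, both sgNrf2 tumours lay above both controls for 7 and below them for 5. The median log2 fold change of that list was 0.07.

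The 15 named genes with the highest fold changes also held genes of none of these lists. Asb9, a SOCS-box substrate adaptor of ubiquitin ligases, had 0 and 0 against 472 and 287, which is at least 219-fold higher, and 101 without control A and 118 without control B against a floor of 3 reads over the controls. Cldn18, a tight junction claudin of stomach and lung, had 0 and 0 against 670.0 and 76.0, which is at least 220.0-fold higher, and 101 without control A, 119 without control B, 43.5 without sgNrf2 tumour A and 384 without sgNrf2 tumour B against the same floor. Cldn3, another claudin, had 10.8 and 7.59 against 992 and 1092 (6.69 ± 0.36). Slc5a4b, of the sodium-glucose cotransporter family, had 1.08 and 2.53 against 819 and 579 and was 403-fold higher (counting interval 138 to 1955), and 652 without control B. Eps8l3, an actin regulator of the EPS8 family, had 11.9 and 2.53 against 1103 and 439.7 (6.69 ± 0.81), and Ugt8a, which makes galactosylceramide, had 6.47 and 1.27 against 1012 and 153 (6.58 ± 1.11). Cldn18 and Ugt8a were far higher in tumour A than in tumour B. Those 6 calls had limma adjusted p of 0.017 to 0.047. The 6 calls depended on the libraries: those passing were only Asb9, Slc5a4b and Cldn3 without sgNrf2 tumour A (the rest at adjusted p 0.088 to 0.15), only Asb9, Cldn18 and Slc5a4b without sgNrf2 tumour B (the rest at adjusted p 0.050 to 0.063), and all but Cldn18 and Ugt8a without control B (adjusted p 0.066 to 0.078). Alternatives took away the call of Cldn18 and Ugt8a in edgeR (adjusted p 0.057 to 0.073), of Ugt8a after the exon length correction (adjusted p = 0.056), of Cldn18 with a pseudocount of 5 (adjusted p = 0.053), and of Cldn18 and Ugt8a under a mean filter of 50 (adjusted p 0.051 to 0.059). The settings together gave adjusted p of 3.3e-40 to 0.15.

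At the other end, Slc4a9, an anion exchanger, had 596 and 699 against 0 and 1.75 and was 765-fold lower (counting interval 211 to 6325), and 368 without sgNrf2 tumour A and at least 265 without sgNrf2 tumour B. Epb41l4a, a band 4.1 family protein, had 242 and 513 against 0.81 and 0.874 and was 436-fold lower (counting interval 120.1 to 3604), and 287 without control B. Dct, dopachrome tautomerase of melanin synthesis, had 312 and 432 against 1.62 and 6.12 (-6.41 ± 0.64), and Cux2, a homeobox factor that is sex-dependent in mouse liver, had 184 and 937 against 9.72 and 2.62 (-6.06 ± 0.98). Dnajc6, auxilin, had 726 and 279.7 against 3.24 and 14.9 (-5.78 ± 0.84) and Cacna1b, a calcium channel subunit, had 121 and 649 against 4.05 and 6.12 (-5.55 ± 0.89). In each of these 6 genes the sgNrf2 tumours held few reads, and the controls differed from each other by up to several times. Limma adjusted p was 0.024 to 0.047. With 3 libraries in place of 4, the genes of these 6 calls that passed were only Slc4a9, Epb41l4a and Dct without sgNrf2 tumour A (the rest at adjusted p 0.051 to 0.11), only Slc4a9, Epb41l4a and Dct without sgNrf2 tumour B (the rest at adjusted p 0.051 to 0.11), and only Slc4a9, Epb41l4a and Cacna1b without control B (the rest at adjusted p 0.050 to 0.059). Calls did not hold for Cux2 and Cacna1b in edgeR (adjusted p 0.052 to 0.054), and for Cacna1b under a mean filter of 50 (adjusted p = 0.051). Across settings the adjusted p was 1.6e-18 to 0.11.

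The plot of gene lists shows how these groups compare with the others. Lists not described elsewhere held few calls. Among higher calls, aldehyde dehydrogenases had 1 of 17 (3, 1, 0 and 0), metallothioneins and zinc carriers had 1 of 10 (3, 0, 0 and 0), lipogenesis had 2 of 21 (4, 5, 0 and 0), cholesterol synthesis had 1 of 23 (2, 3, 0 and 0) and coagulation and complement had 1 of 31 (2, 2, 0 and 0), and of 4 platelet markers 1 fell. Limma called 0 genes of 9 lists, and edgeR likewise: MYC, MAX and MXD network (12 tested, 2 at an unadjusted p under 0.05, 2 called by DESeq2), ribosome biogenesis (30 tested, 13 at an unadjusted p under 0.05, 6 called by DESeq2), p53 target genes (21 tested, 5 at an unadjusted p under 0.05, 4 called by DESeq2), hepatocyte identity transcription factors (20 tested, 7 at an unadjusted p under 0.05, 5 called by DESeq2), WNT and beta-catenin liver targets (12 tested, 3 at an unadjusted p under 0.05, 2 called by DESeq2), autophagy and lysosome regulators (22 tested, 6 at an unadjusted p under 0.05, 4 called by DESeq2), BTB-domain adaptors of the CUL3 ligase (41 tested, 7 at an unadjusted p under 0.05, 4 called by DESeq2), mast cell and basophil markers (8 tested, 0 at an unadjusted p under 0.05, 0 called by DESeq2) and mesothelial, gut and pancreas markers (5 tested, 2 at an unadjusted p under 0.05, 2 called by DESeq2).

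**Figure D4:**
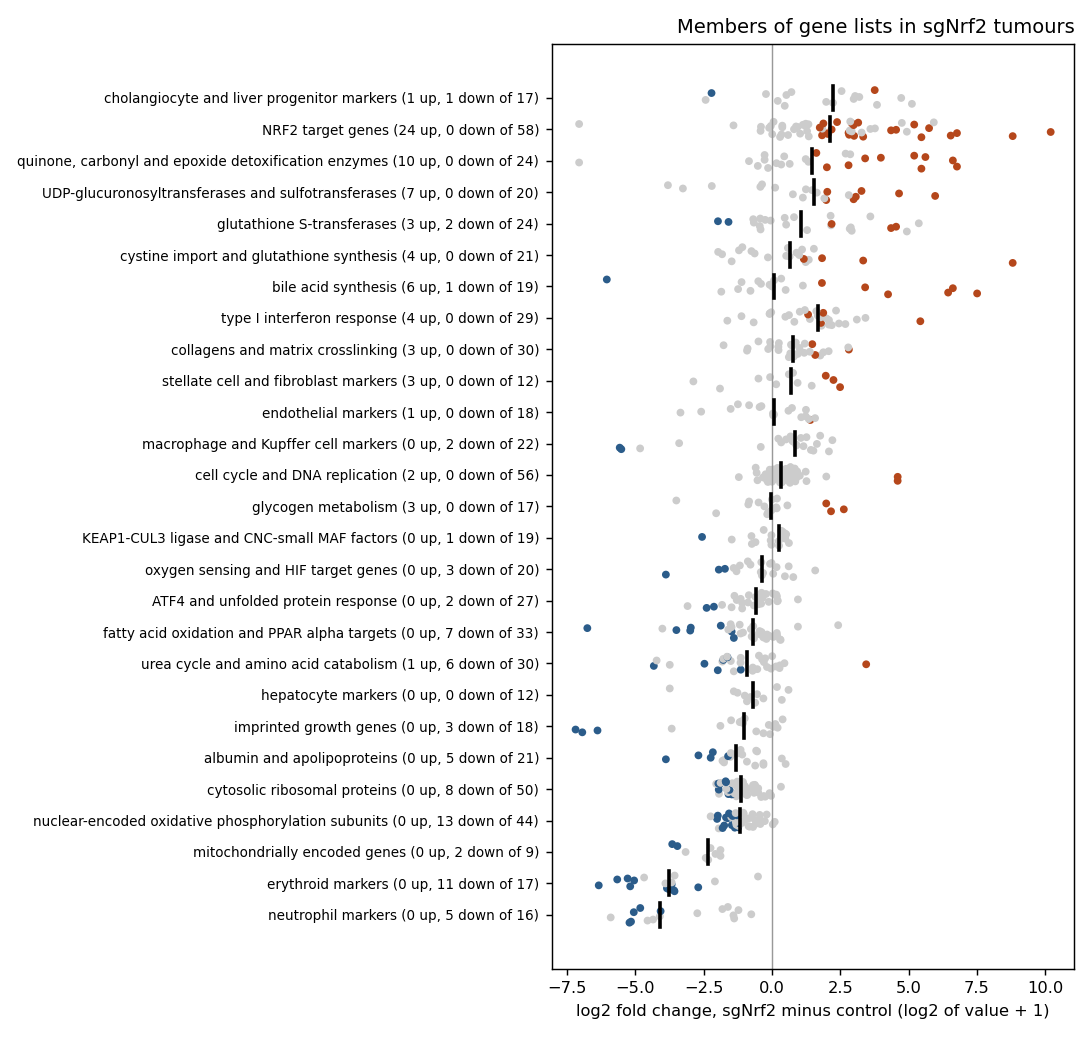
Each point is a listed gene that passed the filter, placed by its log2 fold change (sgNrf2 minus control), red where it rose, blue where it fell and grey where it was not called, and the black bar is the list's median. The medians run from 2.23 for duct markers and 2.11 for NRF2 targets to -4.09 for neutrophil markers, and most points of most lists are grey.

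Binding proteins of the insulin-like growth factors changed in both directions. Igfbp2 (chr1:72824503-72852474, plus strand) had 3069.7 and 5545 against 3.24 and 3.50 (-9.88 ± 0.41), the lowest log2 fold change of the named genes, and Igfbp1 had 10011 and 12798 against 306 and 612 (-4.71 ± 0.38). Igfbp3, the main carrier in serum, rose from 1453 and 782 to 4228 and 5056 (2.12 ± 0.34). Of 17 listed genes of IGF signalling, 1 rose (5, 2, 0 and 0 with each library left out in turn) and 2 fell (3, 2, 2 and 2 with each library left out in turn). The noncoding RNAs Meg3, Rian and Mirg lie next to each other on chromosome 12 and are expressed from the maternal copy of the Dlk1-Dio3 imprinted region. Meg3 (chr12:109541001-109571726, plus strand) had 1145 and 2854 against 21.1 and 8.74 (-6.95 ± 0.63), Rian (chr12:109603940-109661716, plus strand) had 1315 and 3401 against 29.2 and 20.1 (-6.39 ± 0.53), and Mirg (chr12:109729764-109749460, plus strand) had 128 and 299 against 0.81 and 0 and was 492-fold lower (counting interval 87.7 to 19471), and 305 without control B, at least 78.8 without sgNrf2 tumour A and 255 without sgNrf2 tumour B. They were the 3 of 18 imprinted growth genes that fell (5, 3, 3 and 4 with each library left out in turn), with a list median of -1.03. Grb10, an imprinted inhibitor of insulin signalling, had 5248 and 10179 against 292 and 1117 (-3.67 ± 0.70) and adjusted p = 0.056. Annotated antisense genes overlap many loci, and the library kit does not mark strand, so reads of such partners cannot be told apart.

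Sall4, a transcription factor of fetal liver and of some liver cancers, had 185 and 386 against 0 and 0, which is at least 220.2-fold lower, and 106 without sgNrf2 tumour A and 114 without sgNrf2 tumour B against a floor of 3 reads over the sgNrf2 tumours. Afp, alpha-fetoprotein, was abundant in all 4 libraries, with 72139 and 83592 against 33756 and 43338 (-1.02 ± 0.32), and did not pass (adjusted p = 0.11). Cd24a, a surface protein of progenitor cells and immature leukocytes, fell from 479 and 311 to 70.5 and 96.1 (-2.22 ± 0.37). Glp1r, the receptor of glucagon-like peptide 1, had 0 and 0 against 29.2 and 87.4, which is at least 32.7-fold higher, and 15.1 without control A, 17.7 without control B, 50.04 without sgNrf2 tumour A and 16.7 without sgNrf2 tumour B. Of 15 oncofetal genes that passed the filter, 1 rose and 3 fell (3, 3, 2 and 2 with each library left out in turn), with a median of -0.58. Limma adjusted p of the 9 calls among growth and fetal genes was 0.012 to 0.047. Of these 9 calls, all but Igfbp3, Cd24a and Glp1r passed without sgNrf2 tumour A. All but Igfbp3, Mirg, Cd24a and Glp1r passed without sgNrf2 tumour B, where Glp1r did not reach the mean filter and was not tested. All but Glp1r passed without control B. Other settings ended the call of Cd24a with equal totals (adjusted p = 0.056), of Igfbp3, Cd24a and Glp1r in edgeR (adjusted p 0.054 to 0.060), and of Igfbp3 and Cd24a after the exon length correction (adjusted p 0.053 to 0.055). Glp1r, with a mean of 29.1, was not tested under a mean filter of 50. Over all settings tried, adjusted p ran from 1.8e-53 to 0.25.

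Among genes of fatty acid oxidation and targets of PPAR-alpha, 7 of 33 fell (9, 5, 2 and 0 with each library left out in turn), with a median of -0.69. Acot1 and Acot2 are acyl-CoA thioesterases and near copies. Acot1 fell from 1453 and 954 to 153 and 141 (-2.996 ± 0.29), and Acot2 fell from 1506 and 958 to 105 and 105 (-3.50 ± 0.31). Plin5, a lipid droplet protein, had 2689 and 3237 against 688 and 936 (-1.88 ± 0.24). Pdk4, which shuts pyruvate dehydrogenase, had 1734 and 2583 against 371 and 194 (-2.97 ± 0.40). Both beta-oxidation enzymes named here fell. Eci2, an enoyl-CoA isomerase, had 3132 and 3299 against 1263 and 1051 (-1.48 ± 0.19), and Acadl, long-chain acyl-CoA dehydrogenase, had 4869 and 6028 against 1793 and 2354 (-1.40 ± 0.23). Cyp4a14, given above, is the last of them. Of 30 genes of the urea cycle and amino acid breakdown, 6 fell (19, 4, 1 and 1 with each library left out in turn) and 1 rose, with a median of -0.93. Ass1 and Asl are successive urea cycle enzymes. Ass1 fell from 14857 and 17243 to 4167 and 3911 (-1.99 ± 0.20), and Asl fell from 7208 and 5996 to 2857 and 3096 (-1.14 ± 0.19). Gatm, which makes the precursor of creatine, had 3121 and 1893 against 96.4 and 149 (-4.33 ± 0.36). Hpd of tyrosine breakdown had 10318 and 9988 against 1386 and 2401 (-2.48 ± 0.30). Sdsl, a serine dehydratase-like enzyme, had 1074 and 1228 against 324 and 341 (-1.79 ± 0.21), and Gpt, alanine aminotransferase, had 4029 and 5594 against 1757 and 1336 (-1.63 ± 0.26). None of these 6 genes had overlapping groups, which was also so for 64% of all genes tested.

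Tdo2, which opens the ring of tryptophan, was the 1 gene of this group that rose, from 707 and 1615 to 10116 and 13439 (3.45 ± 0.43). Glycogen genes rose in 3 of 17 cases (3, 3, 1 and 0 with each library left out in turn), with a median of -0.02: Gbe1, the branching enzyme, had 934 and 1244 against 5212 and 4453 (2.16 ± 0.22), Pygb, the brain form of glycogen phosphorylase, had 692 and 568 against 3421 and 4401 (2.63 ± 0.22), and Ugp2, given above, makes the UDP-glucose that glycogen is built from. Gapdh was the 1 call among 28 genes of glycolysis and gluconeogenesis, and it fell from 1017 and 976 to 195 and 299.8 (-2.04 ± 0.29); it has many processed pseudogenes, which could take some of its reads. The 16 calls had limma adjusted p of 0.024 to 0.048. When a library was left out, the 16 calls passed as follows: only Acot2, Pdk4, Gatm, Tdo2 and Pygb without sgNrf2 tumour A (the rest at adjusted p 0.060 to 0.35), only Gatm without sgNrf2 tumour B (the rest at adjusted p 0.055 to 0.26), and all but Plin5, Pdk4, Acadl, Hpd, Gpt and Gapdh without control B (adjusted p 0.052 to 0.058). The call was lost for Asl after quantile normalisation (adjusted p = 0.071), for Asl with equal totals (adjusted p = 0.077), for Acadl and Asl in edgeR (adjusted p 0.053 to 0.056), and for Acadl and Gpt after the exon length correction (adjusted p 0.055 to 0.071). Adjusted p over the settings was 4.1e-23 to 0.35.

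Some secreted products of hepatocytes fell. Of 21 genes listed with albumin and the apolipoproteins, 5 fell (10, 5, 1 and 2 with each library left out in turn), with a median of -1.31. Apoa5, which aids triglyceride clearance, had 4316 and 3797 against 179.9 and 413 (-3.89 ± 0.42). The small apolipoproteins of the C class regulate lipoprotein lipase and the uptake of remnants. Apoc1 had 16958 and 20451 against 3282 and 4694 (-2.25 ± 0.26). Apoc3 had 19653 and 23766 against 7168 and 6997 (-1.61 ± 0.21), and Apoc4 had 8393 and 8954 against 1007 and 1778 (-2.69 ± 0.31). Rbp4, the retinol carrier of serum, had 39890.0 and 46589.6 against 10226 and 9000.4 (-2.17 ± 0.24). Alb itself had 180835 and 393121 against 152595 and 197882 (-0.62 ± 0.59) with overlapping groups and adjusted p = 0.51, and its value turned to 1.11 after quantile normalisation. Of 23 acute phase proteins, 3 fell (5, 5, 0 and 0 with each library left out in turn). Serpina3n, a serine protease inhibitor, had 3956 and 2865 against 687 and 702 (-2.28 ± 0.23). Lbp, which binds lipopolysaccharide, had 2446 and 4287 against 753 and 801 (-2.06 ± 0.31), and Itih3, a hyaluronan-binding protein, had 32175 and 25798 against 8267 and 9419.9 (-1.71 ± 0.24). Tat, tyrosine aminotransferase, had 134 and 18001 against 334 and 39.3, so that the 2 controls differed more from each other than the groups did. Those 8 calls had limma adjusted p of 0.029 to 0.044. The 8 calls depended on the libraries: those passing were only Apoa5 without sgNrf2 tumour A (the rest at adjusted p 0.082 to 0.28), only Apoa5 and Apoc4 without sgNrf2 tumour B (the rest at adjusted p 0.089 to 0.22), and all but Apoa5 and Apoc4 without control B (adjusted p 0.053 to 0.054). Alternatives took away the call of Rbp4, Apoc1 and Apoc3 after the exon length correction (adjusted p 0.050 to 0.076). The settings together gave adjusted p of 1.2e-16 to 0.28.

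Stress programmes held few calls. Among 20 genes of oxygen sensing and HIF targets, 3 fell (4, 4, 1 and 1 with each library left out in turn), with a list median of -0.38. Egln1 (PHD2), the prolyl hydroxylase that marks HIF-alpha for degradation, had 1425 and 1729 against 103 and 108 (-3.89 ± 0.24), with nearly the same value in both sgNrf2 tumours, and Bnip3, a mitophagy receptor, had 6603 and 6977 against 1761 and 1753 (-1.95 ± 0.17). Ndrg1, a hypoxia-induced protein, had 11697 and 7757 against 2992 and 2775 (-1.72 ± 0.26). Among 27 ATF4 and unfolded protein response genes, 2 fell (7, 1, 0 and 0 with each library left out in turn), with a median of -0.60: the transcription factors Atf3, with 2114 and 1167 against 282 and 315 (-2.39 ± 0.34), and Ddit3 (CHOP), with 328 and 273 against 61.6 and 74.3 (-2.13 ± 0.32). Hsph1, a large heat shock protein, had 1415 and 1931 against 4657 and 4009 (1.39 ± 0.23) and was the 1 of 24 chaperones that rose. Psmd1, a base subunit of the 26S proteasome, had 1561 and 1442 against 3877 and 3690.3 (1.33 ± 0.17) and was the 1 of 32 subunits that rose, while 20 subunits had both sgNrf2 tumours below both controls without a call. Limma adjusted p of the 7 calls was 0.020 to 0.047. With 3 libraries in place of 4, the genes of these 7 calls that passed were only Egln1 without sgNrf2 tumour A (the rest at adjusted p 0.11 to 0.28), only Egln1 without sgNrf2 tumour B (the rest at adjusted p 0.10 to 0.20), and all but Ddit3 without control B (adjusted p = 0.050). Calls did not hold for Ndrg1 after quantile normalisation (adjusted p = 0.056), for Ndrg1 with equal totals (adjusted p = 0.056), for Hsph1 in edgeR (adjusted p = 0.053), and for Ddit3, Hsph1 and Psmd1 after the exon length correction (adjusted p 0.053 to 0.061). Across settings the adjusted p was 2.8e-35 to 0.28.

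Cell cycle genes gave 2 calls among 56 (18, 2, 1 and 0 with each library left out in turn), with a median of 0.32. Ccnd1, cyclin D1, which drives exit from the first gap phase, had 51.8 and 105 against 1471 and 2228 (4.60 ± 0.43), and Cdkn2a, which encodes the inhibitors p16INK4a and p19ARF, had 4.31 and 3.797 against 239.8 and 61.2 (4.60 ± 0.78). Interferon-induced genes had a median of 1.68, and both sgNrf2 tumours were above both controls for 21 of 29, but 4 rose (16, 3, 0 and 0 with each library left out in turn). Mx1, an antiviral GTPase, had 43.1 and 6.33 against 941 and 636 (5.43 ± 0.90). Ifi27 had 436 and 271 against 1272 and 1116 (1.79 ± 0.30), and Rtp4 had 75.5 and 69.6 against 243 and 296 (1.87 ± 0.32). edgeR called 0 interferon genes higher, with 19 at an unadjusted limma p under 0.05, and DESeq2 called 12. The 5 calls had limma adjusted p of 0.029 to 0.048. Of these 5 calls, the following passed with a library left out: only Ccnd1 without sgNrf2 tumour A (the rest at adjusted p 0.15 to 0.31), none without sgNrf2 tumour B (adjusted p 0.076 to 0.33), all but Cdkn2a and Rtp4 without control B (adjusted p 0.054 to 0.074), and all but Cdkn2a without control A (adjusted p = 0.051). Other settings ended the call of Cdkn2a, Mx1, Ifi27 and Rtp4 in edgeR (adjusted p 0.054 to 0.056), of Mx1 after the exon length correction (adjusted p = 0.055), of Cdkn2a with a pseudocount of 5 (adjusted p = 0.052), and of Cdkn2a under a mean filter of 50 (adjusted p = 0.072). Over all settings tried, adjusted p ran from 1.5e-20 to 0.33.

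Some matrix and stromal genes rose. Of 30 collagens and matrix genes, 3 rose (9, 4, 0 and 0 with each library left out in turn), with a median of 0.78. Col15a1, a collagen of basement membrane zones, had 133 and 124 against 849.8 and 968 (2.81 ± 0.24). Col4a2, a collagen IV chain, had 1056 and 725 against 2636 and 2598 (1.58 ± 0.24), and Sparc, a matrix glycoprotein, had 2299.9 and 1998 against 6133 and 5776 (1.47 ± 0.18). Of 12 stellate cell and fibroblast markers that passed the filter, 3 rose (3, 2, 0 and 0 with each library left out in turn). Pdgfrb, a receptor of stellate cells and pericytes, had 92.7 and 79.7 against 534 and 446 (2.49 ± 0.29). Rgs5, of pericytes, had 334 and 354 against 1953 and 1376 (2.25 ± 0.25), and Thy1, of fibroblasts and lymphocytes, had 66.8 and 57.0 against 234 and 254 (1.97 ± 0.32). The summed level of all 17 stellate and fibroblast markers was 2696 and 3053 against 6774 and 4989 normalised reads. Pecam1 (CD31) was the 1 of 18 endothelial markers that rose, from 332 and 304 to 864 and 819.9 (1.40 ± 0.21), and the summed level of that list was 4618 and 4560.0 against 5644 and 5819.6. Of 17 cholangiocyte and progenitor markers, with a median of 2.23, Ddit4l rose from 4.31 and 10.1 to 122 and 87.4 (3.76 ± 0.59) and Cd24a, given above, fell. The defining duct markers Krt19 and Epcam were not called, with 29.1 and 6.33 against 1292 and 34.1 (3.84 ± 1.82) and 34.5 and 0 against 563 and 75.2 (5.12 ± 1.93), and were high in sgNrf2 tumour A alone. The summed level of the duct markers was 3555 and 3837 against 11969.9 and 4133. The part of such cells in the calls was not tested. Those 8 calls had limma adjusted p of 0.024 to 0.047. When a library was left out, the 8 calls passed as follows: none without sgNrf2 tumour A (adjusted p 0.10 to 0.32), none without sgNrf2 tumour B (adjusted p 0.086 to 0.31), and all but Thy1 without control B (adjusted p = 0.050). The call was lost for Ddit4l after quantile normalisation (adjusted p = 0.051), for Col4a2 and Thy1 in edgeR (adjusted p 0.052 to 0.055), for Col4a2, Thy1, Pecam1 and Ddit4l after the exon length correction (adjusted p 0.050 to 0.063), and for Ddit4l under a mean filter of 50 (adjusted p = 0.072). Adjusted p over the settings was 4.8e-16 to 0.32.

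Some ribosomal, oxidative phosphorylation, mitochondrial and small noncoding RNA genes fell. Of 50 cytosolic ribosomal protein genes 8 fell (28, 18, 0 and 0 with each library left out in turn), and 43 had both sgNrf2 tumours below both controls, with a median of -1.12. Rps18 had 7719 and 9859 against 2101 and 2373 (-1.97 ± 0.21). Rpl34 had 11965 and 14913 against 3215 and 3709.6 (-1.95 ± 0.21), and Rps14 had 23723 and 28502 against 6414 and 7315 (-1.92 ± 0.22). Such genes have many pseudogene copies. Of 44 nuclear-encoded subunits of oxidative phosphorylation 13 fell (35, 20, 0 and 0 with each library left out in turn), with a median of -1.16. Uqcrq of the cytochrome bc1 complex had 9484 and 11021 against 2358 and 2722 (-2.01 ± 0.20). Ndufb8 of NADH dehydrogenase had 7619 and 10888 against 2590.0 and 2828 (-1.75 ± 0.24), and Cox7b of cytochrome c oxidase had 14914 and 23334 against 4450.1 and 4988 (-1.99 ± 0.28). Of 9 mitochondrially encoded genes 2 fell (9, 2, 0 and 0 with each library left out in turn), the ribosomal RNAs mt-Rnr1, with 30815 and 87405 against 4751 and 4639.6 (-3.47 ± 0.52), and mt-Rnr2, with 27680.2 and 95624 against 3737 and 4465 (-3.65 ± 0.61). mt-Co1 had 495385 and 704325 against 112725 and 136477 (-2.25 ± 0.53) and adjusted p = 0.076. The nuclear noncoding RNAs n-R5-8s1 (a small ribosomal RNA) and Rn7sk had 802 and 1320.0 against 34.0 and 32.3 (-4.91 ± 0.36) and 654 and 1045 against 68.1 and 29.7 (-4.17 ± 0.51), and all 4 small nuclear RNA genes and all 3 nuclear ribosomal RNA genes tested fell.

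The length trend given above is set beside these groups here. The median of all genes was -0.39 in the class that ends at 2000 exonic bases and -0.04 in the class that ends at 4000. Ribosomal protein genes had a median length of 1989.5 bases and a median log2 fold change of -1.12, which was -0.71 after the exon length correction. Rps18 has 2451 exonic bases, and its value was -1.97 before and -1.83 after it (adjusted p = 0.037). Genes under 1000 exonic bases, without mitochondrial ones, took 3.70 and 3.34% against 1.68 and 1.92% of gene reads, beside 2.46 to 4.36% in the 10 libraries of the other table. Mitochondrially encoded genes took 9.11 and 13.6% against 2.62 and 3.30%, beside 2.79 to 13.6% in the libraries of the other table. Within that range, sgGFP tumours 1 and 3 had 3.02 and 4.49%, and tumour 1 lay below sgNrf2 tumour B. The sgGFP tumours 2 and 4, which controls A and B repeat, had 8.74 and 12.98%. A low share was therefore also found in control tumours. After the exon length correction 6 ribosomal protein genes, 2 oxidative phosphorylation genes and 0 mitochondrial genes fell; for the last list 9 had an unadjusted limma p under 0.05 before the correction, and edgeR called 1 and DESeq2 9 of them lower. The part of library preparation or RNA quality in these calls was not tested. Limma adjusted p of the 10 named calls was 0.024 to 0.047. The 10 calls depended on the libraries: those passing were only n-R5-8s1 and Rn7sk without sgNrf2 tumour A (the rest at adjusted p 0.12 to 0.21), only n-R5-8s1 without sgNrf2 tumour B (the rest at adjusted p 0.068 to 0.16), and all but Rn7sk without control B (adjusted p = 0.055). Alternatives took away the call of mt-Rnr2 in edgeR (adjusted p = 0.053), and of Cox7b, mt-Rnr1, mt-Rnr2 and Rn7sk after the exon length correction (adjusted p 0.055 to 0.076). The settings together gave adjusted p of 2.1e-29 to 0.21.

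Markers of red blood cells and neutrophils gave calls in the lower direction. Of 17 erythroid markers 11 fell (11, 3, 3 and 3 with each library left out in turn), with a median of -3.77 and a summed level of 31863 and 36048 against 15355 and 9718. Slc4a1, the anion exchanger of red cells, had 644 and 327 against 6.48 and 20.1 (-5.19 ± 0.67). Rhd, the Rhesus antigen, had 88.4 and 53.2 against 0 and 0.874, which is 172-fold lower (counting interval 30.3 to 6836), and 82.6 without sgNrf2 tumour A and at least 29.7 without sgNrf2 tumour B. The globin Hbb-bs had 11040.0 and 10983 against 555 and 1169.5 (-3.77 ± 0.38) and Hba-a1 had 1283 and 2064 against 94.8 and 195 (-3.57 ± 0.45), and globin genes are near copies. Of 16 neutrophil markers that passed the filter 5 fell (5, 4, 3 and 3 with each library left out in turn), with a median of -4.09 and a summed level of 17114 and 13547 against 6691 and 2863. S100a8 and S100a9 are the subunits of calprotectin. S100a8 had 3719.9 and 1862 against 38.1 and 127 (-5.22 ± 0.66), and S100a9 had 4472 and 2114 against 39.7 and 180.1 (-5.16 ± 0.79). Retnlg, a resistin-like protein of neutrophils, had 467 and 311 against 11.3 and 9.61 (-5.06 ± 0.42). Mmp8, neutrophil collagenase, had 179 and 179.7 against 9.72 and 9.61 (-4.08 ± 0.41), and Chil3, a chitinase-like protein of myeloid cells, had 549.9 and 201 against 7.29 and 15.7 (-4.82 ± 0.68). No marker named here had overlapping groups, which was also so for 64% of all genes tested. Markers at 0 reads numbered 0, 0, 2 and 0 for the erythroid and 0, 0, 2 and 0 for the neutrophil list in the 4 libraries in the usual order.

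Among 22 macrophage markers, 17 had a log2 fold change above 0, with a list median of 0.83, and Marco and Clec4f, of resident Kupffer cells, fell. Marco had 69.0 and 161 against 0.81 and 1.75 and was 88.2-fold lower (counting interval 29.7 to 431), and 54.7 without control B and 137 without sgNrf2 tumour B, and Clec4f had 60.4 and 167 against 1.62 and 0.874 and was 86.8-fold lower (counting interval 29.2 to 425), and 132 without control A and 47.9 without control B. Vsig4, also of Kupffer cells, had 122 and 101 against 7.29 and 0.874 (-4.83 ± 0.85) and adjusted p = 0.051. The general macrophage genes Csf1r, with 533 and 214 against 891 and 922 (1.42 ± 0.46), and Adgre1, with 166 and 51.9 against 388 and 406 (2.08 ± 0.59), were higher in value and not called. The summed level of the 23 macrophage markers was 26042 and 4159 against 20239 and 21207, so control B stood below the other 3 libraries, and 2 of 22 fell with all libraries (3, 2, 0 and 0 with each library left out in turn). Without control A, 14 of these markers rose. Of the 15 T and NK cell markers and the 9 B and plasma cell markers that passed the filter, limma called 0, with 2 and 3 at an unadjusted p under 0.05 and 0 called by edgeR; DESeq2 called 1 and 2. The part of blood and immune cells in the other results was not tested. The 11 calls among blood and macrophage markers had limma adjusted p of 0.024 to 0.044. With 3 libraries in place of 4, the genes of these 11 calls that passed were only Hbb-bs, S100a8, S100a9 and Retnlg without sgNrf2 tumour A (the rest at adjusted p 0.054 to 0.097), only Hbb-bs, Hba-a1, S100a8 and S100a9 without sgNrf2 tumour B (the rest at adjusted p 0.051 to 0.098), all but Slc4a1, Hbb-bs, Hba-a1, S100a8 and S100a9 without control B (adjusted p 0.051 to 0.060), and all but S100a9 without control A (adjusted p = 0.056). Calls did not hold for S100a9 in edgeR (adjusted p = 0.055), for Hba-a1 and S100a9 after the exon length correction (adjusted p 0.055 to 0.062), and for Marco and Clec4f under a mean filter of 50 (adjusted p 0.071 to 0.077). Rhd, with a mean of 35.6, was not tested under that filter. Across settings the adjusted p was 2e-19 to 0.098.

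The values were set beside those of the guides against Keap1 and Cul3 in the other table, each with 3 tumours against sgGFP tumours 1 and 3. Tumours 2 and 4 were left out because controls A and B repeat them, so the comparisons share no control tumour. The tables were scaled separately, and only fold changes are set side by side. Of 12837 genes tested there, 1.54% rose and 0.569% fell with sgKeap1, and 0.28% rose and 0.0389% fell with sgCul3. Among the 12702 genes tested in both tables, 247 rose with sgNrf2 and 197 with sgKeap1, and 73 rose in both, 29.6% of the first and 37.1% of the second list. For falls the numbers were 330, 73 and 18, or 5.45% and 24.7%. With sgCul3, 36 genes rose, 22 of them also with sgNrf2 (8.91% and 61.1%), and 5 fell, 2 of them also with sgNrf2. Of the listed NRF2 targets tested there, 35 of 57 rose with sgKeap1 and 15 with sgCul3.

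Srxn1, Nqo1, Gclc and Cyp7b1 rose with all 3 guides. Gpx2 was listed at 0 in sgGFP tumours 1 and 3, after the 1 added to each entry was removed, at 861, 191 and 522 in the sgKeap1 tumours and at 434, 176 and 5.47 in the sgCul3 tumours. Srxn1 had 6.54 ± 0.25 with sgNrf2, 7.32 ± 0.38 with sgKeap1 and 6.13 ± 0.38 with sgCul3 (limma adjusted p with sgKeap1 and sgCul3 of 8e-05 and 0.00037). Nqo1 had 5.47 ± 0.75 with sgNrf2, 7.46 ± 0.53 with sgKeap1 and 6.54 ± 0.53 with sgCul3 (0.0006 and 0.0019), and Gclc had 3.34 ± 0.38 with sgNrf2, 4.07 ± 0.37 with sgKeap1 and 3.14 ± 0.37 with sgCul3 (0.0017 and 0.013). Abcc4 had 5.75 ± 0.57 with sgNrf2, 3.88 ± 0.66 with sgKeap1 and 2.57 ± 0.66 with sgCul3 (0.025 and 0.18). Other genes had values that differed between guides, without a test of the difference. Cyp7b1 had 7.51 ± 0.38 with sgNrf2, 5.77 ± 0.43 with sgKeap1 and 4.89 ± 0.43 with sgCul3 (0.00081 and 0.0024), and Cyp8b1 had 6.45 ± 0.39 with sgNrf2, 3.72 ± 0.65 with sgKeap1 and 3.08 ± 0.65 with sgCul3 (0.029 and 0.11). Igfbp2 had -9.88 ± 0.41 with sgNrf2, -0.82 ± 2.14 with sgKeap1 and -2.47 ± 2.14 with sgCul3 (0.83 and 0.65), and Meg3 had -6.95 ± 0.63 with sgNrf2, 0.03 ± 0.83 with sgKeap1 and -0.47 ± 0.83 with sgCul3 (0.98 and 0.84). Fabp6 had -8.00 ± 0.44 with sgNrf2, -4.96 ± 1.06 with sgKeap1 and -2.19 ± 1.06 with sgCul3 (0.052 and 0.41). Some genes were called in opposite directions with sgNrf2 and sgKeap1: Ndst1 and Pdpr rose with sgNrf2 and fell with sgKeap1, and Mrpl54, Rmrp and Rpph1 did the reverse. Ndst1, which modifies heparan sulfate, had 1.64 ± 0.19 with sgNrf2 and -2.82 ± 0.55 with sgKeap1. Rmrp, the RNA of a ribonuclease, had -4.66 ± 0.54 and 5.09 ± 0.55, and has 271 exonic bases. The part of the choice of control tumours in these opposite directions was not tested.

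**Figure D5:**
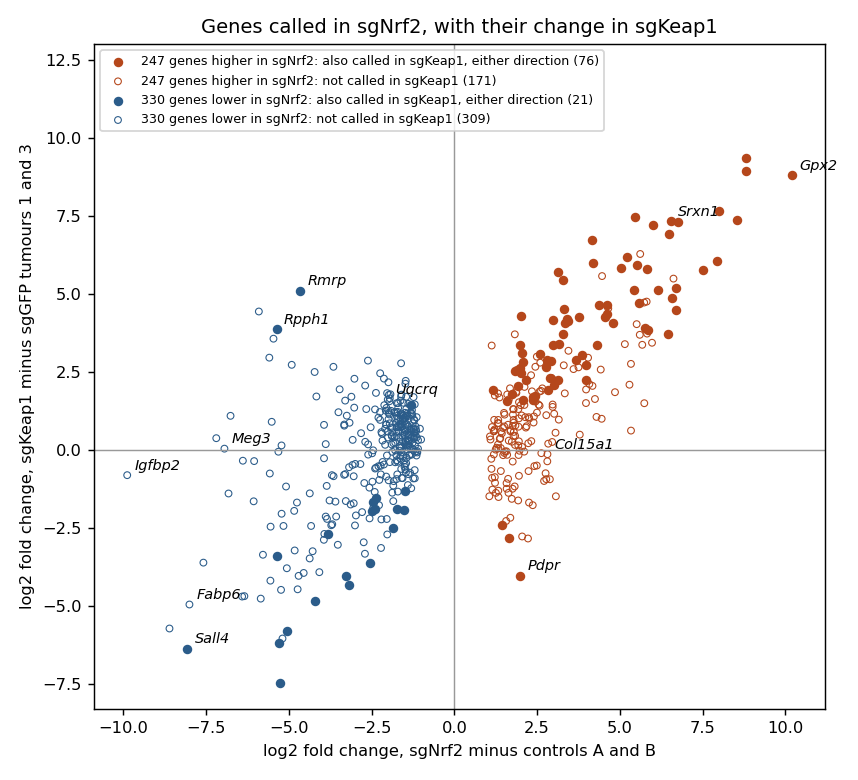
Each point is a gene called with sgNrf2, with its log2 fold change there on the x axis and that of sgKeap1 tumours against sgGFP tumours 1 and 3 on the y axis, red where it rose and blue where it fell with sgNrf2, and filled where it was also called with sgKeap1 in either direction. Of the 247 red points 197 lie above 0 on the y axis, and of the 330 blue points 149 lie below it. Of all 12702 genes that both tables share after the filter, 49.5% lie above 0 and 50.5% below.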

How the data were processed

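RNA was extracted with a Qiagen kit and made into libraries with the Illumina TruSeq RNA V2 kit, per the labels' protocols. That kit does not mark strand. The authors deposited HTSeq gene counts scaled by DESeq within each table, a signal in scaled reads. Picard and the build mm10 are also named in the submitters' processing notes. For aligner, annotation and versions the entry is "not given in the sources used here". Besides 16095 genes, the table with sgNrf2 tumours has 4 entries for reads on no gene, which were left out. Positions and exon lengths come from GENCODE M21 (GRCm38), which holds 16048 of the gene IDs. Each library's values were multiples of 1 step (100% within a tolerance of 0.1 reads), which gave back whole reads. Counting intervals and floors (exact, 95%) hold for counting error alone, because these reads carry no molecular identifiers.

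Labels gave the groups. The test was limma 3.58.1 (R 4.3.3; mean-variance trend, two-sided, no block) on the log2 of value plus 1, for genes whose mean was 10 or more, with Benjamini-Hochberg adjustment over all of them. The sgKeap1 and sgCul3 values come from the same test in the other table, where 1 was added to every entry, so no count model was run there. Alternatives were a pseudocount of 5, no filter, a mean filter of 50, quantile normalisation, equal totals, edgeR 4.0.16, DESeq2 1.42.0, a block by letter and each library left out (a lone library is then assumed to vary like the other group). For the exon length correction, the log2 deviation of each gene from its mean was taken in each library. The median deviation within each of 20 classes of exon length was subtracted per library, which can also change the spread within groups. This correction was chosen after seeing the data. On counts simulated from the mean reads of these libraries, the limma fit over 13991 genes called 33 of 68 genes changed by 1 on the log2 scale. It called 66 of 66 changed by 2, 66 of 66 changed by 4, and 6 unchanged ones. Every simulated gene had the same set dispersion, not estimated from these libraries, and only genes with a mean of 100 or more were changed. The simulation therefore does not show what share of real changes was called here.

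The comparison and the 58 gene lists were chosen with earlier results of these data known. Named genes follow a rule: Keap1, Cul3, Nfe2l2, Myc, Fn3k and Fn3krp, the 15 most raised and 15 most lowered called genes by log2 fold change (mean of 100 or more, groups apart, predicted genes and pseudogenes left out), and up to 6 members of each list by adjusted p, plus defining cell markers. Which of these are described was decided with their values in view. Akr1b7, Akr1c20, Asl, Baat, Cbr1, Entpd5, Fgf15, Hmox1, Mrpl54, Ndst1, Nqo1, Pdpr, Rmrp, Rn7sk, Rpph1, Xdh and n-R5-8s1 lie outside the rule and were picked after their values were seen. A few genes within these results are not reported here.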

Additional observations from a re-analysis of the deposited data

Results flagged for a closer look

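Reads that HTSeq found ambiguous between genes are not used in any comparison above. They made up 0.638% of the sum of all HTSeq entries in sgNrf2 tumour A and 0.614% in sgNrf2 tumour B, above both controls (0.458% and 0.388%).

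Among the genes named above, some moved one way in both sgNrf2 tumours and the other way in all 3 tumours of another guide, each against its own controls. The differences between guides were not tested. The sgNrf2 controls repeat sgGFP tumours 2 and 4, and the other guides were set against sgGFP tumours 1 and 3. Beside all sgGFP tumours, some genes listed below overlapped, and others, such as Keap1 with sgKeap1, did not. Rps14 had 10927, 10443 and 16802 normalised reads in the sgKeap1 tumours. It had 6398, 12384, 8962 and 18195 in sgGFP tumours 1 to 4. The part of the choice of control tumours in this list was not tested. The values below are log2 fold changes, that of sgNrf2 first. Against sgKeap1 there were 24 such genes. Lower with sgNrf2 and higher with sgKeap1 were Prdx2 (-1.17 beside 0.74), Prdx5 (-1.04 beside 0.67), Gstt2 (-1.98 beside 1.76), Apoc3 (-1.61 beside 2.77), Apoc4 (-2.69 beside 2.06), Rps18 (-1.97 beside 1.13), Rpl34 (-1.95 beside 1.65), Rps14 (-1.92 beside 0.71), Uqcrq (-2.01 beside 1.60), Cox7b (-1.99 beside 1.18), mt-Rnr1 (-3.47 beside 1.94), mt-Rnr2 (-3.65 beside 2.66), mt-Co1 (-2.25 beside 1.71), n-R5-8s1 (-4.91 beside 2.72), Rn7sk (-4.17 beside 1.71), Mrpl54 (-1.30 beside 1.44), Rmrp (-4.66 beside 5.09) and Rpph1 (-5.37 beside 3.86). Higher with sgNrf2 and lower with sgKeap1 were Keap1 (0.26 beside -0.77), Psmd1 (1.33 beside -1.52), Col4a2 (1.58 beside -1.25), Pecam1 (1.40 beside -0.68), Ndst1 (1.64 beside -2.82) and Pdpr (1.99 beside -4.03). Against sgCul3 there were 15. Lower with sgNrf2 and higher with sgCul3 were Rps18 (-1.97 beside 0.77), Rpl34 (-1.95 beside 1.06), mt-Rnr1 (-3.47 beside 1.83), mt-Rnr2 (-3.65 beside 2.46), n-R5-8s1 (-4.91 beside 1.13), Mrpl54 (-1.30 beside 1.12), Rmrp (-4.66 beside 2.83) and Rpph1 (-5.37 beside 1.53). Higher with sgNrf2 and lower with sgCul3 were Psmd1 (1.33 beside -0.77), Col15a1 (2.81 beside -0.26), Col4a2 (1.58 beside -1.33), Sparc (1.47 beside -0.47), Pecam1 (1.40 beside -0.90), Ndst1 (1.64 beside -1.67) and Pdpr (1.99 beside -2.15).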

How the results depend on the processing

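The numbers of genes that rose and fell (266 and 351) became 407 and 565 after quantile normalisation, 889 and 367 with equal totals, 1181 and 1458 in DESeq2, 181 and 284 in edgeR, and 164 and 217 after the exon length correction, for which the cause was not tested. With each library left out they ran from 25 to 1850 and from 33 to 1718, with 3 libraries in the fit. Direction turned for Cul3 (0.097 after quantile normalisation, 0.28 with equal totals, -0.055 to 0.0068 with a library left out), Nfe2l2 (0.26 with equal totals, -0.25 to 0.15), Myc (0.17 after quantile normalisation, 0.25 with equal totals, 0.075 after the exon length correction, -0.35 to 0.23), Fn3k (-0.18 to 0.63), Hmox1 (-0.58 in edgeR, -0.57 in DESeq2, -1.44 to 2.02) and Alb (1.11 after quantile normalisation), none of which was called. Genes that fell with both sgNrf2 and sgKeap1 (18) became 30 with a pseudocount of 5 and 30 without the filter. Of 166 named genes, 28 lost their call in edgeR, 37 after the length correction, 35 without control B, 98 without sgNrf2 tumour A and 105 without sgNrf2 tumour B. The other alternatives ended at most 10 of these calls each. The 166 also hold genes not called with all 4 libraries, such as Keap1, Nfe2l2 and Hmox1. The lost calls are therefore a larger share of the calls than of the 166. The edgeR fit on reads of both tables was not run. Depth limits genes near the floor of 3 reads, which are given as bounds or ratios.

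The labels give the letters A and B to both groups without saying what they mark, and samples with the same letter did not deviate together (correlation -0.000641 over genes, 2 pairs). A fit with the letter as a replicate block called 300 genes higher and 383 lower, 208 and 269 of them among the calls without it, and 10 of the named genes lost their call (Gss, Prdx2, Prdx5, Cd24a, Asl, Ddit3, Hsph1, Rtp4, Thy1 and Pecam1, at adjusted p 0.051 to 0.070).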
